A study of Mus musculus with 9 samples.

Results

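The TNF superfamily ligands are trimeric cytokines, most of them made as membrane proteins, that bind receptors of the TNF receptor superfamily on neighbouring cells. The genes of 10 such ligands were followed here in mouse plasmacytoid dendritic cells (pDCs), namely Tnf, Lta, Ltb, Tnfsf4, Tnfsf8, Tnfsf9, Tnfsf10, Tnfsf13, Tnfsf13b and Cd70. They were chosen by symbol, and all 10 were matched to 1 gene each among the 57126 genes of the count table. The cells had been sorted by flow cytometry and treated with oxidized mitochondrial DNA (Ox-mtDNA), with mitochondrial DNA (mtDNA) or with phosphate-buffered saline (PBS), the vehicle, and polyadenylated RNA was sequenced from 3 libraries per treatment, 9 libraries in all. The comparisons ask which of these genes respond to mitochondrial DNA in pDCs and whether oxidation of the DNA alters that response. Strain, age, sex, dose and duration of treatment are not given in the labels, nor is it stated whether replicates were separate animals or separate cultures, so a p-value here reflects the variation among these libraries, which may be technical.

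Ligand binding recruits TRAF adaptors or death domain proteins to the receptor tails and leads to NF-kB activation, to cell survival or to cell death. Tnf and lymphotoxin drive inflammation and lymphoid tissue organisation, the ligands OX40L, CD30L, 4-1BBL and CD70 costimulate T cells, TRAIL can induce apoptosis, and APRIL and BAFF sustain B cells and plasma cells. pDCs are known above all for type I interferon, and are also known to make Tnf after nucleic acids are sensed by endosomal Toll-like receptors.

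Total counts per library ranged from 16029951 to 25378884. A first principal component with 70.7% of the variance set the libraries numbered replicate 3, 1 in each group, apart from the remaining 6. In them Xist was at 818 to 2090 CPM (counts scaled to a library size common to all libraries), against 0 to 0.846 CPM in the other 6, and the Y-linked genes together were at 1.18 to 5.52 CPM, against 259 to 378 CPM. By these genes replicate 3 had the pattern of female cells and replicates 1 and 2 that of male cells. Replicate 3 thus did not come from the same animals as the others. Since replicate 3 is present once in each treatment, the values below are given by library, and also without replicate 3 where that matters. The 10 pDC markers summed to 4530 to 10800 CPM after Ox-mtDNA, 7010 to 10200 CPM after mtDNA and 8540 to 12000 CPM in PBS, with the lowest value in Ox-mtDNA replicate 2. B cell markers (10 of 10 genes detected) summed to 321, 707 and 153 CPM after Ox-mtDNA, by replicate number, to 261, 224 and 205 CPM after mtDNA, and to 414, 445 and 315 CPM in PBS. In such bulk libraries fewer cells of a type and less RNA per cell cannot be told apart.

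No gene of the table, and so none of the ligands, passed an adjusted p of 0.05 in edgeR's quasi-likelihood test in any of the 3 comparisons (0% of the 17555 genes tested). Of the 10 ligands 7 were tested, and Tnfsf13, Tnfsf13b and Cd70 were below the filter on low counts. With Ox-mtDNA against PBS, 3 of the 7 had an unadjusted p under 0.05 (Tnf and Tnfsf9 higher, Tnfsf10 lower), where 9.81% of all tested genes did (5.88% higher, 3.93% lower). With mtDNA against PBS, 2 of the 7 did (Tnf and Lta, both higher), where 2.62% of all genes did (2.02% higher, 0.598% lower). With Ox-mtDNA against mtDNA, 1 of the 7 did (Tnfsf10, lower), where 2.4% of all genes did (0.923% higher, 1.48% lower). DESeq2 also called 0 of the 7 ligands in each comparison, while it called 370 genes in all with Ox-mtDNA against PBS (2.12%), 14 with mtDNA against PBS (0.0836%) and 1 with Ox-mtDNA against mtDNA (0.00574%). What follows are therefore levels and differences, none of which held after adjustment in edgeR.

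**Figure D1:**
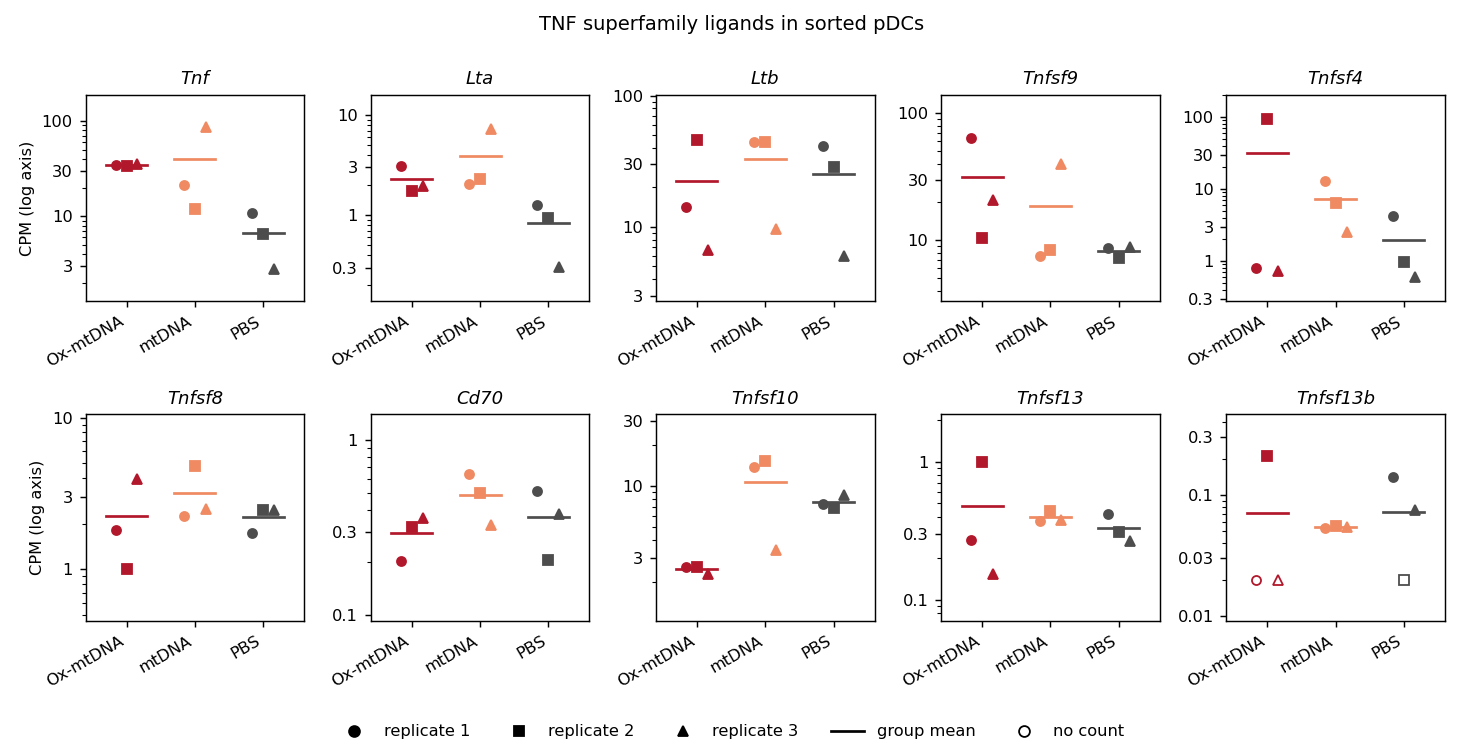
CPM (log axis) of the 10 ligand genes in each library, by treatment; symbols mark replicates 1, 2 and 3, bars the group means, and open symbols libraries with no count. Tnf sat at 34 to 35.6 CPM in all 3 Ox-mtDNA libraries, above the 2.81 to 10.7 CPM of PBS, and Tnfsf10 at 2.27 to 2.57 CPM, below the 6.86 to 8.58 CPM of PBS.

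Tnf, Lta and Ltb lie side by side on mouse chromosome 17, in the class III part of the major histocompatibility complex. In GRCm39 Ltb spans chr17:35413415-35415296 on the plus strand, Tnf chr17:35418357-35420983 on the minus strand and Lta chr17:35422141-35424327 on the minus strand. The 250 bases before the start of each, from RefSeq on GRCm38.p6, are shown because Tnf and Lta had the closest profiles of any pair of tested ligands, while that of their neighbour Ltb differed. Capitals mark matches to the motifs searched on both strands, which were the NF-kB consensus, the IRF core AANNGAAA, the AP-1 site TGANTCA, the CRE TGACGTCA and the TATA box TATAAA.
Tnf (chr17:35202008-35202257, minus strand): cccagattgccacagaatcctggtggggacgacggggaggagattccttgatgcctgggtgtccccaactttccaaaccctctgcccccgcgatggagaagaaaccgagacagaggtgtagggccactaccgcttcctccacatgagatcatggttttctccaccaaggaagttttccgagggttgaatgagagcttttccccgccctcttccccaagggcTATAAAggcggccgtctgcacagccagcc
Lta (chr17:35205352-35205601, minus strand): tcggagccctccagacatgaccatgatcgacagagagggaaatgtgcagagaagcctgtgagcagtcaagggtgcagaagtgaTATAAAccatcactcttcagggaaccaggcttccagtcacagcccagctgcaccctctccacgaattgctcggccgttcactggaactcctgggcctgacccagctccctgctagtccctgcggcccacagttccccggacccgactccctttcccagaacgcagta
Ltb (chr17:35194257-35194506, plus strand): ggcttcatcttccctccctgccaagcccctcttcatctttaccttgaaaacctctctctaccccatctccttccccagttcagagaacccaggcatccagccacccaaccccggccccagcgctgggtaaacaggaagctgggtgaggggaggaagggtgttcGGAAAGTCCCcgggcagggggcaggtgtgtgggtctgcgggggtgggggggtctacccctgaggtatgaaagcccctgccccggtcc
The Tnf window held TATAAA at -29 to -24 and the Lta window TATAAA at -167 to -162, counted from the start, and 12.4% of the 32851 promoter windows held this motif. The Ltb window held an NF-kB consensus match on its minus strand at -87 to -78, which 7.25% of the windows held. No 2 of these matches overlap, and a match is only a match of letters.

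Tnf, the founding inflammatory cytokine of the family, was counted after Ox-mtDNA at 34.6, 34 and 35.6 CPM in replicates 1 to 3, at 21.2, 12 and 85.9 CPM after mtDNA, and at 10.7, 6.5 and 2.81 CPM in PBS. Every Ox-mtDNA and every mtDNA library was above every PBS library, and the Ox-mtDNA libraries varied least. With Ox-mtDNA, the mean was 34.7 ± 0.833 CPM, against 6.67 ± 3.95 CPM in PBS (SD, n = 3 each), and the log2 fold change was 2.38 (SE 0.776, edgeR adjusted p = 0.472). By replicate number, the log2 differences were 1.68, 2.37 and 3.62. The fold change was 2 without replicate 3, and 2 to 2.89 when 1 library was left out.

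After mtDNA, Tnf averaged 39.7 ± 40.3 CPM, against the same PBS libraries (SD, n = 3), with a log2 fold change of 2.57 (SE 0.782, edgeR adjusted p = 1). Replicate 3 carried much of it, with differences of 0.98 and 0.87 in replicates 1 and 2 and of 4.88 in replicate 3. Without mtDNA replicate 3 the fold change was 1.28. With Ox-mtDNA against mtDNA it was -0.19 (SE 0.737, edgeR adjusted p = 1), with differences of 0.7, 1.5 and -1.27 by replicate number. With replicates 1 and 2 alone it was 1.06, so the direction turned on replicate 3.

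Lta encodes lymphotoxin alpha, which is secreted as a homotrimer that binds the TNF receptors or joins Ltb on the membrane to bind the lymphotoxin beta receptor. Lta had 3.11, 1.75 and 1.96 CPM after Ox-mtDNA, 2.03, 2.31 and 7.23 CPM after mtDNA, and 1.26, 0.928 and 0.304 CPM in PBS. As with Tnf, both treated groups lay above all PBS libraries. With Ox-mtDNA the log2 fold change was 1.45 (SE 0.704, edgeR adjusted p = 0.561), and with mtDNA 2.22 (SE 0.716, edgeR adjusted p = 1) or 1.36 without mtDNA replicate 3. With Ox-mtDNA against mtDNA it was -0.77, and 0.16 with replicates 1 and 2 alone. Over the 9 libraries the profiles of Tnf and Lta differed by a root mean square (RMS) of 0.6 in centred log2 CPM, the smallest value among the tested ligands.

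Ltb, lymphotoxin beta, the membrane anchor of that heterotrimer, had 14.3, 46.2 and 6.71 CPM after Ox-mtDNA, 44.1, 44.6 and 9.57 CPM after mtDNA, and 41.6, 28.6 and 5.96 CPM in PBS. The 3 groups overlapped. Replicate 3 was the lowest library in each group, and Ox-mtDNA replicate 1 was low as well. The log2 fold change was -0.18 with Ox-mtDNA against PBS (SE 0.932, edgeR adjusted p = 1), 0.37 with mtDNA against PBS (SE 0.932, edgeR adjusted p = 1) and -0.55 with Ox-mtDNA against mtDNA (SE 0.934, edgeR adjusted p = 1). The profile of Ltb differed from that of Tnf by an RMS of 1.86 and from that of Lta by 1.53.

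The difference between replicate 3 and the mean of replicates 1 and 2 varied with the GC content of a gene's longest transcript. For Ltb, at 61.0% GC, it was -1.92, -2.2 and -2.51 in log2 CPM for Ox-mtDNA, mtDNA and PBS, and tested genes of like GC had medians of -2.8, -3.12 and -3.55. For Tnf, at 52.1% GC, it was 0.06, 2.42 and -1.54, where genes of like GC had medians of 0.03, -0.07 and -0.06. Tnfsf4, at 42.8% GC, was at -3.48, -1.79 and -1.62 against medians of 0.22, 0.23 and 0.48. The part of GC content in the results was not tested.

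**Figure D2:**
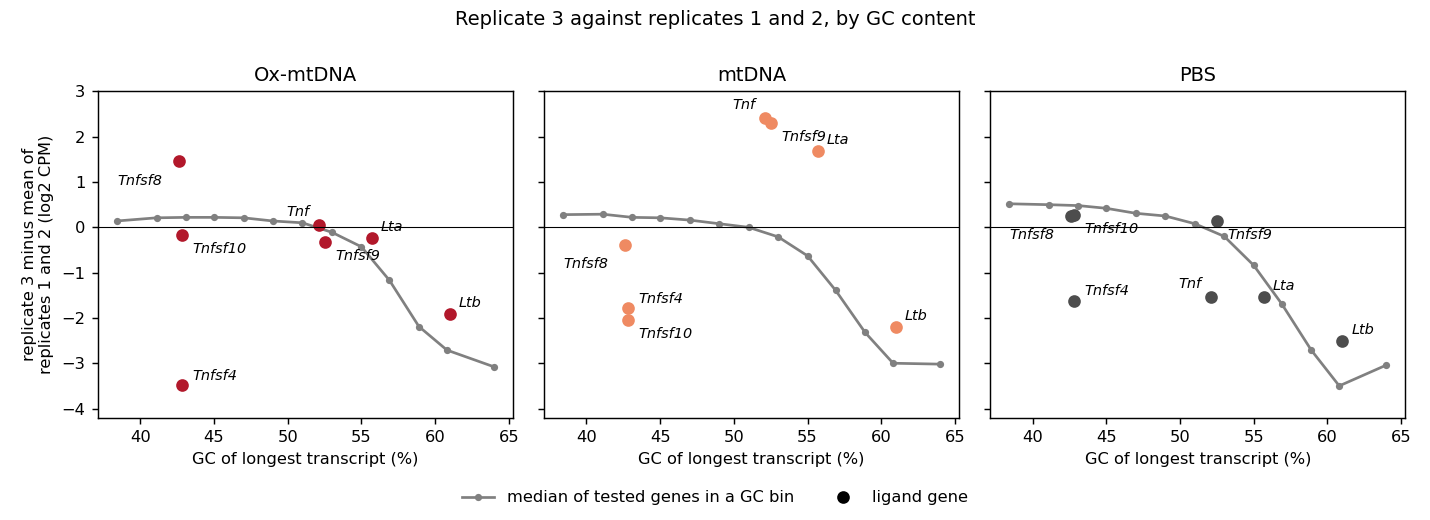
Replicate 3 minus the mean of replicates 1 and 2 (log2 CPM) against the GC content (%) of the longest transcript, for the 7 tested ligands (points) and the median of tested genes in GC bins (line). Ltb, the most GC-rich of them, is low in replicate 3 of each group, as are the medians of genes of like GC, while the mtDNA points of Tnf (2.42), Tnfsf9 (2.31) and Lta (1.69) lie above the line.

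The ligands of T cell costimulation were Tnfsf9, Tnfsf4, Tnfsf8 and Cd70. Tnfsf9 (4-1BBL), whose receptor is Tnfrsf9 on activated T cells, lies at chr17:57412325-57414757 in GRCm39, the build of all gene positions given here. It had 63.5, 10.5 and 20.7 CPM after Ox-mtDNA, 7.47, 8.38 and 39.6 CPM after mtDNA, and 8.65, 7.27 and 8.77 CPM in PBS. All 3 Ox-mtDNA libraries were above all PBS libraries, Ox-mtDNA replicate 1 and mtDNA replicate 3 by the most. Tnfsf9 averaged 31.6 ± 28.1 CPM after Ox-mtDNA and 8.23 ± 0.834 CPM in PBS (SD, n = 3 each), and the log2 fold change was 1.94 (SE 0.835, edgeR adjusted p = 0.506), which was 0.92 without Ox-mtDNA replicate 1. With mtDNA against PBS it was 1.17 (edgeR adjusted p = 1), and -0.12 without mtDNA replicate 3. Tnfsf9 shares 113 exon bases with the antisense gene Gm11110, and reads of such a pair cannot be told apart where counting ignores strand. Gm11110 had 20.3, 7.3 and 11.1 CPM after Ox-mtDNA, 5.23, 5.95 and 14 CPM after mtDNA, and 6.19, 5.57 and 7.67 CPM in PBS.

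Tnfsf4 (OX40L), which costimulates T cells through Tnfrsf4 and supports T follicular helper cells, lies at chr1:161222980-161245981. It had 0.81, 92.6 and 0.722 CPM after Ox-mtDNA, 12.8, 6.45 and 2.56 CPM after mtDNA, and 4.28, 0.98 and 0.607 CPM in PBS. A single library, Ox-mtDNA replicate 2, gave nearly all of the Ox-mtDNA mean of 31.4 ± 53 CPM, against 1.96 ± 2.02 CPM in PBS (SD, n = 3 each). The log2 fold change of 4 (SE 1.88, edgeR adjusted p = 0.548) became -1.36 without that library. With mtDNA against PBS Tnfsf4 was higher in each replicate number, by 1.55, 2.6 and 1.9, with a fold change of 1.89 (SE 1.73, edgeR adjusted p = 1). Ox-mtDNA replicate 2 also held the highest B cell marker sum (707 CPM) and the lowest pDC marker sum (4530 CPM). Its sums of conventional dendritic cell markers (560 CPM) and of monocyte and macrophage markers (683 CPM) were the lowest as well. The part of any of these cell types in the Tnfsf4 value was not tested.

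Tnfsf8 (CD30L), the ligand of Tnfrsf8, had 1.82, 1 and 3.92 CPM after Ox-mtDNA, 2.24, 4.79 and 2.5 CPM after mtDNA, and 1.72, 2.47 and 2.47 CPM in PBS. The groups overlapped, and the log2 fold changes were 0.02 with Ox-mtDNA against PBS, 0.52 with mtDNA against PBS and -0.5 with Ox-mtDNA against mtDNA (edgeR adjusted p = 1 in each). Cd70, the ligand of Cd27, was not tested, with 0.203 to 0.361 CPM after Ox-mtDNA, 0.326 to 0.641 CPM after mtDNA and 0.206 to 0.512 CPM in PBS. It lies near Tnfsf9, at chr17:57452997-57456777, and Tnfsf8 lies at chr4:63749545-63779584.

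Tnfsf10 (TRAIL), which binds the death receptor Tnfrsf10b and is known as an interferon-inducible gene, was lower in every Ox-mtDNA library than in any PBS library. Its promoter window is shown for its 2 IRF core matches, in capitals, at -53 to -46 on the minus strand and at -30 to -23 on the plus strand. Windows of Tnfsf8 and Tnfsf13b held IRF core matches as well, and 21.3% of all windows held at least 1.
Tnfsf10 (GRCm38.p6, chr3:27316827-27317076, plus strand): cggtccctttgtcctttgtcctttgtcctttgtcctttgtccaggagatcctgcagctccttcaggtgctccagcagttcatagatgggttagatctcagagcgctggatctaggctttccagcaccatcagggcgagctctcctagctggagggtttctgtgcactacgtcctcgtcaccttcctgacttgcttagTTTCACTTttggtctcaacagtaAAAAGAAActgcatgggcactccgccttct
In GRCm39 the gene spans chr3:27371177-27396576. Tnfsf10 had 2.57, 2.54 and 2.27 CPM after Ox-mtDNA, 13.7, 15.2 and 3.43 CPM after mtDNA, and 7.35, 6.86 and 8.58 CPM in PBS. The Ox-mtDNA libraries were below every library of both other groups, while the mtDNA libraries lay on either side of PBS. Tnfsf10 averaged 2.46 ± 0.163 CPM after Ox-mtDNA and 7.6 ± 0.887 CPM in PBS (SD, n = 3 each), and the log2 fold change was -1.63 (SE 0.533, edgeR adjusted p = 0.472), and by replicate number the log2 differences were -1.48, -1.4 and -1.87.

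With Ox-mtDNA against mtDNA, Tnfsf10 had a log2 fold change of -2.13 (SE 0.541, edgeR adjusted p = 1), with an unadjusted p under 0.05. By replicate number the differences were -2.37, -2.54 and -0.57, and with 1 library left out the fold change was -2.52 to -1.81. In this comparison 2.79% of all tested genes were lower with no overlap between the groups, and Tnfsf10 was the 1 ligand of 7 that was; 0 of 7 were higher, where 2.04% of all genes were. With mtDNA against PBS, Tnfsf10 was at 0.51 (SE 0.518, edgeR adjusted p = 1), with differences of 0.89 and 1.14 in replicates 1 and 2 and of -1.3 in replicate 3.

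**Figure D3:**
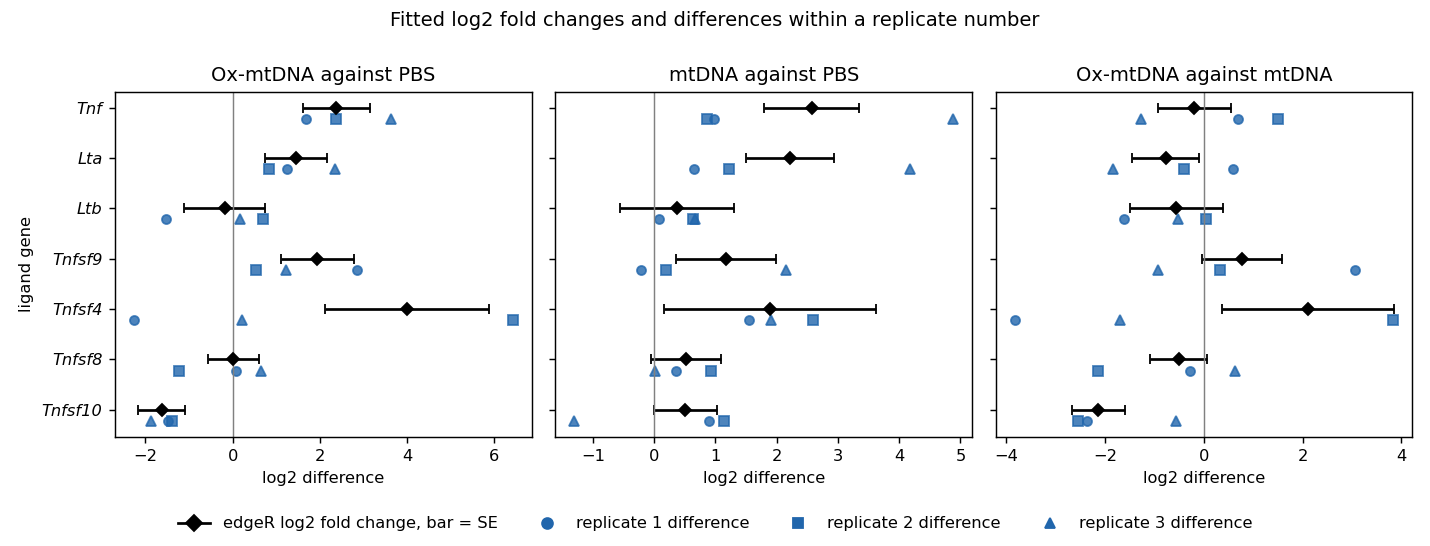
Log2 fold changes of the 7 tested ligands (diamonds, bars are SE) and log2 CPM differences within each replicate number, for Ox-mtDNA against PBS, mtDNA against PBS and Ox-mtDNA against mtDNA. Tnfsf10 lies left of 0 in all 3 replicate numbers with Ox-mtDNA, against PBS and against mtDNA, and the Tnfsf4 values of Ox-mtDNA range from -2.26 to 6.42 against PBS.

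Tnfsf13 (APRIL) and Tnfsf13b (BAFF), the B cell survival factors, were at the edge of detection. They lie at chr11:69573672-69576610 and chr8:10056633-10089072. Tnfsf13 had 0.27, 1 and 0.155 CPM after Ox-mtDNA, 0.374, 0.441 and 0.381 CPM after mtDNA, and 0.419, 0.309 and 0.266 CPM in PBS. It shares 983 exon bases with the readthrough gene Tnfsfm13 and 221 with the antisense gene Tnfsf13os, so its reads are uncertain. Tnfsf13b had 12 counts in all 9 libraries together, with none in Ox-mtDNA replicates 1 and 3 and PBS replicate 2. A count of 0 there allows up to 0.203, 0.155 and 0.155 CPM (3 counts, counting error only), so differences in Tnfsf13b below these levels were not detectable at this depth.

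Counted over the 7 tested ligands, 3 were higher after Ox-mtDNA than in PBS with no overlap (Tnf, Lta and Tnfsf9), where 7.39% of all genes were, and 1 was lower (Tnfsf10), where 8.08% were. Their median log2 fold change was 1.45, beside 0.06 over all tested genes. With mtDNA against PBS, 2 were higher with no overlap (Tnf and Lta), where 5.58% of all genes were, and 0 lower, where 4.96% were. The median was 1.17, beside 0.02. The 2 comparisons share the PBS libraries. With Ox-mtDNA against mtDNA the median was -0.5, beside 0.04. The 7 are those that passed a filter on low counts, and the counts describe them only.

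Per kilobase of exon, the level order in PBS was Ltb, Tnfsf9, Tnf, Tnfsf10, Tnfsf4, Lta, Tnfsf8, Cd70, Tnfsf13 and Tnfsf13b. The levels ran from 21.6 ± 15.3 CPM per kb for Ltb through 6.38 ± 0.647 for Tnfsf9, 4.07 ± 2.41 for Tnf and 1.44 ± 0.168 for Tnfsf10 to 0.0151 ± 0.0146 for Tnfsf13b (SD, n = 3 each). Among neighbours in this order, the ranges of Tnf and Tnfsf10 and of Tnfsf13 and Tnfsf13b did not overlap, and those of the other neighbours did. After Ox-mtDNA the first 4 were Tnfsf9 at 24.5 ± 21.8, Tnf at 21.2 ± 0.508, Ltb at 19.0 ± 17.8 and Tnfsf4 at 17.0 ± 28.8 CPM per kb (SD, n = 3 each), all with overlapping ranges, and Tnfsf10 was the seventh. After mtDNA the order began with Ltb at 27.8 ± 17.1, Tnf at 24.2 ± 24.6 and Tnfsf9 at 14.3 ± 14.2 CPM per kb (SD, n = 3 each), again overlapping.

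Of the 8 other ligands of the superfamily that were listed, 5 were tested and none passed adjustment in edgeR. Fasl, which triggers death through Fas, had 2.09, 0.159 and 33.8 CPM after Ox-mtDNA, 0.214, 0.276 and 26.1 CPM after mtDNA, and 0.14, 0.0516 and 0.038 CPM in PBS. The log2 fold change of Fasl was 7.20 with Ox-mtDNA against PBS (SE 2.68, edgeR adjusted p = 0.473) and 6.76 with mtDNA against PBS (SE 2.64, edgeR adjusted p = 1). Against PBS, Fasl was the 1 of the 5 with an unadjusted p under 0.05 in edgeR in each comparison. Of all tested genes 9.81% had one with Ox-mtDNA and 2.62% with mtDNA. None of the 5 had one with Ox-mtDNA against mtDNA, where 2.4% of all genes did. With the replicate number as a block 2 of the 5 had one with mtDNA against PBS. Of all 17555 tested genes 998 had one with the block in this comparison. DESeq2 called Fasl with Ox-mtDNA against PBS (DESeq2 adjusted p = 0.0108), where it called 2.12% of all genes. Fasl had only 3, 1 and 1 counts in the PBS libraries, so it passed the filter on low counts through treated libraries where it was high. With replicates 1 and 2 alone Fasl was below the filter. Its fold changes and this call therefore describe those libraries and are no further support. The high values were in replicate 3 of both treated groups. NK cell markers (8 genes, 3 of them tested) summed to 3.51, 3.49 and 8 CPM after Ox-mtDNA, 1.87, 2.2 and 5.22 CPM after mtDNA, and 2.74, 1.6 and 2.51 CPM in PBS. Most of the sums in the treated replicate 3 libraries was Klre1, at 6.04 CPM in Ox-mtDNA replicate 3 and 3.1 CPM in mtDNA replicate 3, against 0.496 to 0.81 CPM in the other treated libraries. Eomes was at 0 in replicate 3 of all 3 groups, and Gzma was at 0 in replicates 1 and 3 of all 3 groups. T cell markers (10 genes, 9 of them tested) summed to 229, 264 and 314 CPM after Ox-mtDNA, 183, 221 and 381 CPM after mtDNA, and 243, 292 and 355 CPM in PBS, highest in replicate 3 of each group. Most of that sum was Cd28, at 126 to 320 CPM over the 9 libraries. Trac was at 4.13 CPM in Ox-mtDNA replicate 3 and 5.22 CPM in mtDNA replicate 3. It was at 0.0675 to 1.85 CPM in the other treated libraries and 0.512 to 0.911 CPM in PBS. Cd3d was at 2.89 CPM in Ox-mtDNA replicate 3 and 0.652 CPM in mtDNA replicate 3. Not all T cell markers were high there. Cd3g was at 0.361 and 0.109 CPM in these 2 libraries, against 0 to 0.793 CPM in the other treated libraries. Cd8a was at 6.86 and 9.84 CPM there, against 3.17 to 17.1 CPM. Cd3e was at 0.98 and 1.09 CPM there and at 1.14 CPM in PBS replicate 3. The part of such cells in the Fasl values was not tested. Tnfsf15, the ligand of Tnfrsf25, had 2.03, 1.11 and 10.4 CPM after Ox-mtDNA, 3.1, 2.15 and 9.84 CPM after mtDNA, and 1.77, 0.928 and 1.37 CPM in PBS, again highest in replicate 3 of the treated groups. Tnfsf11, Tnfsf12 and Tnfsf14 averaged 0.523 to 1.05 CPM in the 3 groups.

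Of the 28 receptors, 25 were tested and none passed adjustment in edgeR in any comparison. DESeq2 gave an adjusted p for 22 of them with Ox-mtDNA against PBS, 20 with mtDNA against PBS and 22 with Ox-mtDNA against mtDNA, and called none of those; it gave none for Cd40, Fas and Tnfrsf10b. With Ox-mtDNA against PBS, 3 of the 25 had an unadjusted p under 0.05 in edgeR (Tnfrsf21 and Tnfrsf9 higher, Tnfrsf13b lower). Of all tested genes 9.81% did (5.88% higher, 3.93% lower). In the other comparisons none had, where 2.62% of all genes did with mtDNA against PBS and 2.4% with Ox-mtDNA against mtDNA. With the replicate block 1 had with Ox-mtDNA against mtDNA, where 1195 of all 17555 tested genes did. Tnfrsf13b (TACI), a receptor of APRIL and BAFF, had 117, 75.3 and 101 CPM after Ox-mtDNA, 119, 161 and 114 CPM after mtDNA, and 140, 182 and 278 CPM in PBS. All Ox-mtDNA libraries were below all PBS libraries, with a log2 fold change of -1.03 (SE 0.328, edgeR adjusted p = 0.472). Tnfrsf21, a death receptor, had 10.7, 15.1 and 48.3 CPM after Ox-mtDNA, 9.71, 9.37 and 28.3 CPM after mtDNA, and 7.3, 5.62 and 1.14 CPM in PBS, and its groups did not overlap with PBS in either comparison. Its log2 fold change was 2.40 with Ox-mtDNA against PBS (SE 0.871, edgeR adjusted p = 0.473), with differences of 0.55, 1.41 and 5.29 by replicate number, and 1.01 with replicates 1 and 2 alone.

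Tnfrsf9, the receptor of Tnfsf9, had 0.81, 21.1 and 1.5 CPM after Ox-mtDNA, 3.04, 2.37 and 1.03 CPM after mtDNA, and 1.02, 0.825 and 0.494 CPM in PBS, and the Ox-mtDNA mean rested on replicate 2, as that of Tnfsf4 did. In the same library Tnfrsf10b, the receptor of Tnfsf10, was at 29.8 CPM, against 3.04 and 2.06 CPM in the other Ox-mtDNA libraries. The Tnf receptors Tnfrsf1a and Tnfrsf1b averaged 59 ± 18.6 and 101 ± 54.3 CPM after Ox-mtDNA, 64.7 ± 4.74 and 98.5 ± 42.9 CPM after mtDNA, and 59.8 ± 14.5 and 54.4 ± 10.9 CPM in PBS (SD, n = 3 each). Tnfrsf1a had log2 fold changes of -0.02 with Ox-mtDNA and 0.11 with mtDNA, and Tnfrsf1b of 0.89 and 0.86, each against PBS.

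Ltbr, the receptor of the lymphotoxin heterotrimer, had 24.5, 16.2 and 0.103 CPM after Ox-mtDNA, 19, 18.7 and 0.109 CPM after mtDNA, and 28.2, 23.2 and 0.152 CPM in PBS. It was near 0 in replicate 3 of every group, with differences from the mean of the other replicates of -6.6, -6.49 and -6.66 in log2 CPM. Genes of like GC had medians of -2.42, -2.71 and -3.29 for Ox-mtDNA, mtDNA and PBS. Cd27 averaged 16.8 ± 6.75 CPM after Ox-mtDNA, 21.1 ± 5.42 CPM after mtDNA and 27.2 ± 5.39 CPM in PBS (SD, n = 3 each). Tnfrsf13c, the BAFF receptor, averaged 24.2 ± 6.81 CPM after Ox-mtDNA, 24.7 ± 2.19 CPM after mtDNA and 31.5 ± 1.2 CPM in PBS (SD, n = 3 each), with no overlap between PBS and either treated group. Tnfrsf4, Tnfrsf8 and Tnfrsf17 averaged under 2 CPM in every group. Cd40, the receptor of the T cell help signal, averaged 15.5 ± 20.9 CPM after Ox-mtDNA, 43.1 ± 29.5 CPM after mtDNA and 21.4 ± 8.43 CPM in PBS (SD, n = 3 each). Tnfrsf12a averaged 3.59 ± 3.97 CPM after Ox-mtDNA, 1.28 ± 0.453 CPM after mtDNA and 2.36 ± 0.0719 CPM in PBS (SD, n = 3 each). After Ox-mtDNA, by replicate number, Cd40 had 3.44, 39.6 and 3.35 CPM and Tnfrsf12a 1.76, 8.15 and 0.877 CPM, so both means rested on replicate 2.

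**Figure D4:**
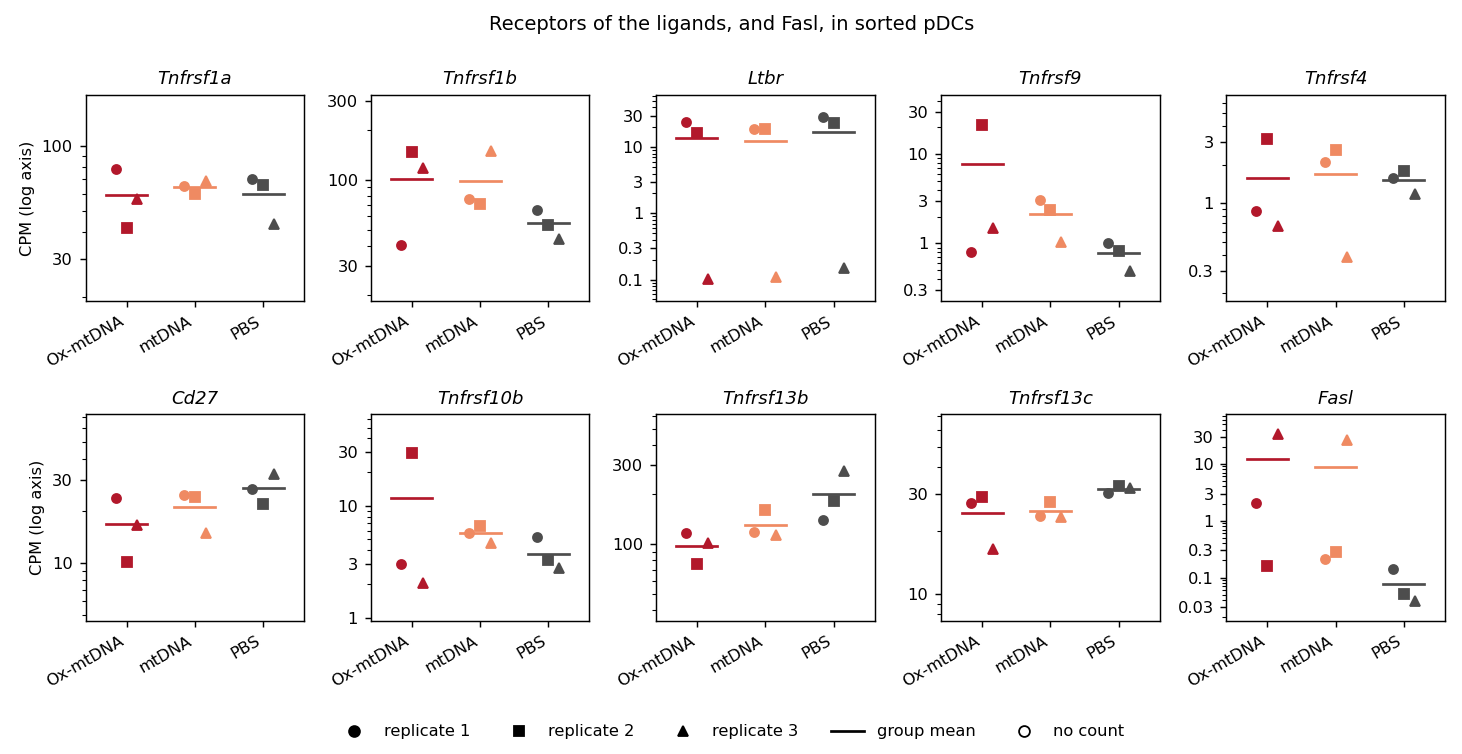
CPM (log axis) of 9 receptors of the ligands and of Fasl in each library, by treatment, with symbols for the replicates and bars for the group means. Ltbr is near 0.1 CPM in all 3 replicate 3 libraries, Tnfrsf9 is high in Ox-mtDNA replicate 2 alone (21.1 CPM), and Tnfrsf13b is below PBS in all Ox-mtDNA libraries.

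Of the 30 genes of receptor signalling, all were tested and none passed adjustment in edgeR. With Ox-mtDNA against PBS, 2 were higher and 1 lower at an unadjusted p under 0.05, where 5.88% of all tested genes were higher and 3.93% lower. DESeq2 called Fadd there, and 2.12% of all genes. With mtDNA against PBS 2 of the 30 were higher at that unadjusted p (Tnfaip3 and Nfkbia), where 2.02% of all genes were. With Ox-mtDNA against mtDNA none passed it, where 2.4% of all genes did. With the replicate block 5 had an unadjusted p under 0.05 with mtDNA against PBS and 1 with Ox-mtDNA against mtDNA. Of all 17555 tested genes 998 and 1195 had one with the block in these comparisons. Tnfaip3 (A20), which restrains NF-kB signalling downstream of the Tnf receptors, had 347, 190 and 774 CPM after Ox-mtDNA, 147, 109 and 1070 CPM after mtDNA, and 91.3, 81.1 and 66.2 CPM in PBS. Both treated groups lay above PBS in every library. The log2 fold change of Tnfaip3 was 2.46 with Ox-mtDNA and 2.47 with mtDNA against PBS, and 1.65 and 0.57 with replicates 1 and 2 alone. Fadd, the adaptor of the death receptors, had 8.64, 6.51 and 8.41 CPM after Ox-mtDNA, 11.2, 12.1 and 11.4 CPM after mtDNA, and 16, 13.4 and 13.9 CPM in PBS, with a log2 fold change with Ox-mtDNA against PBS of -0.88 (SE 0.271, edgeR adjusted p = 0.472, DESeq2 adjusted p = 0.0346). Traf1 had 9.25, 151 and 23.3 CPM after Ox-mtDNA, 41, 39.5 and 53.1 CPM after mtDNA, and 17.8, 12.5 and 5.73 CPM in PBS. Nfkbia, the inhibitor of NF-kB, had 97.1, 205 and 195 CPM after Ox-mtDNA, 144, 110 and 459 CPM after mtDNA, and 107, 89.3 and 84.9 CPM in PBS. The mtDNA libraries of Traf1, Nfkbia and Birc3 were all above PBS, and those of Fadd and Ripk1 were all below it. Of all tested genes 5.58% were higher with no overlap in this comparison and 4.96% lower. Birc3, an inhibitor of apoptosis that binds TRAF proteins, had 81.4, 212 and 150 CPM after Ox-mtDNA, 184, 184 and 328 CPM after mtDNA, and 129, 126 and 125 CPM in PBS. Ripk3, the kinase of necroptosis, averaged 24.7 ± 8.63 CPM after Ox-mtDNA, 15.7 ± 1.89 CPM after mtDNA and 15 ± 3.34 CPM in PBS (SD, n = 3 each). Cyld averaged 106 ± 41.3 CPM after Ox-mtDNA and 146 ± 4.43 CPM after mtDNA (SD, n = 3 each), and had 127, 131 and 164 CPM in PBS.

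Of the 10 genes of ligand processing, 9 were tested and none had an unadjusted p under 0.05 in edgeR in any comparison without the replicate block. With the block 2 of the 9 had one with Ox-mtDNA against PBS (Adam10 and Frmd8), at edgeR adjusted p of 0.197 and 0.246. Of all 17555 tested genes 3345 had one with the block, against 9.81% without it. DESeq2 called none. Adam10 had a DESeq2 unadjusted p of 0.0351 and adjusted p of 0.333 with Ox-mtDNA against PBS. Adam17, the protease that sheds Tnf, averaged 216 ± 160 CPM after Ox-mtDNA, 174 ± 36.3 CPM after mtDNA and 169 ± 29.6 CPM in PBS (SD, n = 3 each). Adam10, another shedding protease, had 70.9, 157 and 57.2 CPM after Ox-mtDNA, 128, 139 and 67.7 CPM after mtDNA, and 167, 163 and 256 CPM in PBS, and both treated groups lay below PBS. Its log2 fold change with Ox-mtDNA against PBS was -1.04 (SE 0.459, edgeR adjusted p = 0.516), with differences of -1.24, -0.05 and -2.16 by replicate number, and -0.53 with replicates 1 and 2 alone. Furin and Rhbdf2, a protease of precursor proteins and a partner of Adam17, were at 0.516 and 1.96 CPM in Ox-mtDNA replicate 3, 1.09 and 0.924 CPM in mtDNA replicate 3 and 0.797 and 2.39 CPM in PBS replicate 3, and at 77.6 CPM or more in every other library. Sppl2a, an intramembrane protease that cleaves the Tnf stub, averaged 103 ± 51.6 CPM after Ox-mtDNA, 142 ± 75.5 CPM after mtDNA and 148 ± 41.4 CPM in PBS (SD, n = 3 each). Sppl2b had 0.103, 0.0544 and 0.152 CPM in replicate 3 of Ox-mtDNA, mtDNA and PBS, and Timp3 and Rhbdf1 averaged under 2 CPM in mtDNA and PBS.

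The genes with the profile most like a ligand's were taken as the 3 with the smallest RMS difference of centred log2 CPM over the 9 libraries. For Tnf these were Kcnab3, Kcnab3os and Nfkbiz, at RMS 0.42, 0.43 and 0.47, where the median over all tested genes was 1.55; Kcnab3os is named as antisense to Kcnab3. For Ltb they were Dock9, Nfkbie and Mvp, at 0.17, 0.22 and 0.27 (median 1.3), and for Tnfsf9 Tsc22d3, Gm48865 and Gm22879, at 0.39, 0.4 and 0.42 (median 1.25). For Tnfsf4 they were Fibcd1, Lmna and Cxcl3, at 0.53, 0.75 and 0.79 (median 2.26), all highest in Ox-mtDNA replicate 2. For Tnfsf10 they were Parp9, Ifi209 and Slfn9, at 0.27, 0.31 and 0.32 (median 1.18), and all 3 were highest in mtDNA replicates 1 and 2. These are likenesses over 9 shared libraries and carry no test.

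**Figure D5:**
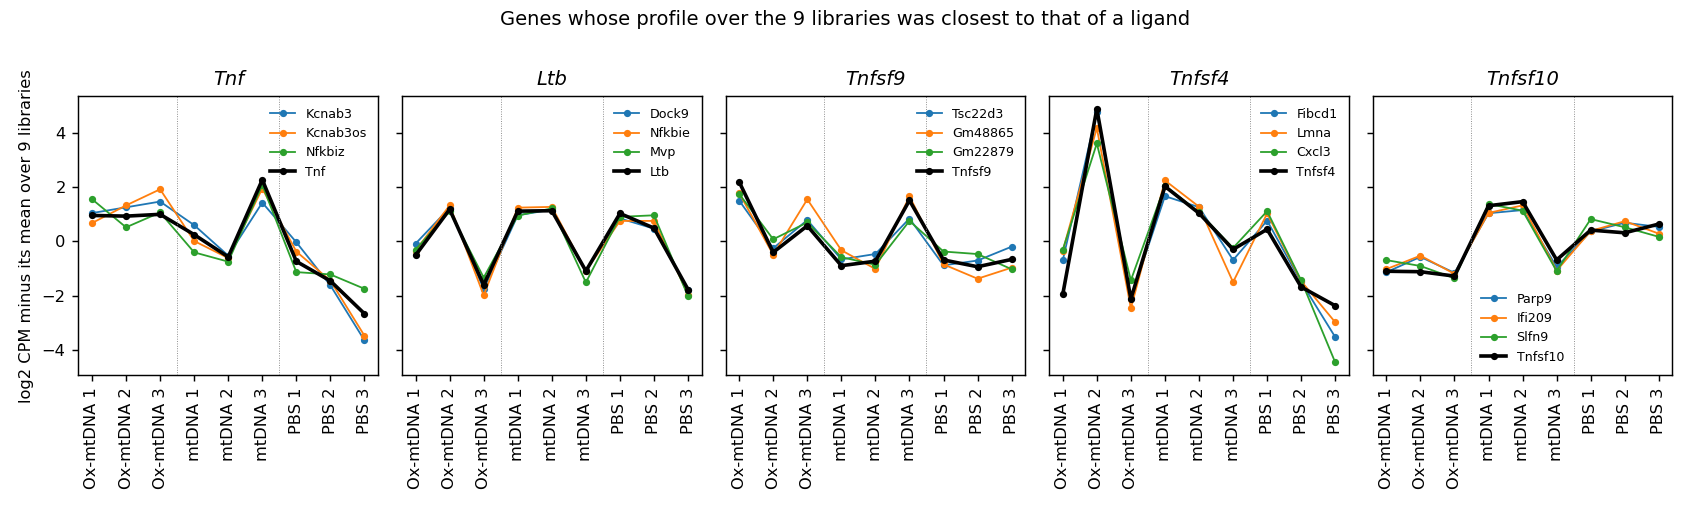
Centred log2 CPM of 5 ligands (black) and of the 3 genes with the closest profile to each (colours) over the 9 libraries, grouped as Ox-mtDNA, mtDNA and PBS. Tnfsf4 and its nearest genes share a single peak in Ox-mtDNA replicate 2, and Tnfsf10 and its nearest genes are low in all Ox-mtDNA libraries and in mtDNA replicate 3.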

How the data were processed

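The authors deposited raw counts per gene for the 9 libraries, with no normalization; the submitters' processing notes name fastp 0.23.4, STAR 2.7.11b, featureCounts 2.0.1 and GRCm39. Fragments over exons of GENCODE vM34 basic genes were counted without strand, for each of several overlapping genes, and multi-mapping fragments were left out, per the file headers, so overlapping genes and close copies are uncertain. The table has 57126 genes, of which 51884 were matched to a symbol and 19757 had no count.

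Counts were tested with the robust quasi-likelihood F-test of edgeR 4.0.16 (R 4.3.3) on 1 model with a coefficient per group over all 9 libraries (6 residual degrees of freedom), after filterByExpr (minimum count 10) and TMM normalization, with Benjamini-Hochberg adjustment over 17555 genes at 0.05. SE belongs to the log2 fold change. CPM used the TMM library sizes, and log2 CPM a prior count of 2. DESeq2 1.42.0 was an alternative. The tests were run on simulated data first, with the same added spread for every gene and no replicate 3 effect. That run cannot show how the tests perform on libraries as variable as these. Replicates of a group differed by 10.8 to 219 times the counting error, as a chi-square over its degrees of freedom.

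Same-numbered libraries of different groups deviated together (correlations of 0.487 to 0.897). The numbers were therefore used as a block in an alternative fit, from the data and not the labels. The main test had no block, so fold changes, SE and p-values are unpaired unless the block is named. Libraries numbered 1 and 2 correlated about as much across numbers (0.524 to 0.708) as within them (0.487 to 0.781), so the correlations set replicate 3 apart and do not show that numbers 1 and 2 pair. A replicate block called 1 gene with Ox-mtDNA against PBS, no ligand, and 0 in the other comparisons. Genes with an unadjusted p under 0.05 numbered 3345, 998 and 1195 with the block in the 3 comparisons, against 1722, 460 and 422 without. GC content came from GENCODE vM21 transcripts, and was found for 95.4% of tested genes. RefSeq promoter windows (GRCm38.p6) were found for 7 of the 10 ligands, not for Tnfsf4, Tnfsf9 and Cd70.

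The members and gene lists were chosen with earlier results of these data known. The text names all 10 ligands, the receptors of the 10 ligands, up to 4 genes of each other list with the smallest p per comparison, and the 3 genes closest in profile to each tested ligand of at least 5 CPM. Ripk1 was named in addition, for its place below PBS after mtDNA.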

Additional observations from a re-analysis of the deposited data

How the results depend on the processing

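No ligand passed an adjusted p of 0.05 under any alternative in any comparison. The smallest adjusted p of a ligand was 0.0611, with Ox-mtDNA against mtDNA and replicates 1 and 2 alone, and by DESeq2 it was 0.0832, with Ox-mtDNA against PBS. Over all genes, DESeq2 called 370 with Ox-mtDNA against PBS (260 higher, 110 lower), 14 with mtDNA against PBS and 1 with Ox-mtDNA against mtDNA, the replicate block called 1 and replicates 1 and 2 alone 25 with Ox-mtDNA against PBS, where edgeR on all libraries called 0. The cause was not tested. Of 357 values under alternatives, 335 kept their direction and side of the threshold and 22 changed direction. Tnfsf8 with Ox-mtDNA against PBS was -0.05 with no filter, -0.02 with the replicate block, -0.57 with replicates 1 and 2 alone and -0.52 with those and the block. Tnfsf9 with mtDNA against PBS was -0.01 with replicates 1 and 2 alone. With Ox-mtDNA against mtDNA, Tnf was 0.06 with the replicate block, 1.06 with replicates 1 and 2 alone and 1.13 with those and the block, and Lta 0.16 and 0.11 in the last 2 fits. With 1 library left out, fold changes of Ox-mtDNA against PBS ranged over -1.36 to 5.29 for Tnfsf4, -1.29 to 0.37 for Ltb and -0.71 to 0.35 for Tnfsf8. Those of mtDNA against PBS ranged over -0.1 to 0.92 for Ltb and -0.12 to 1.52 for Tnfsf9. Those of Ox-mtDNA against mtDNA ranged over -1.07 to 0.1 for Lta, -0.62 to 1.11 for Tnf, -3.25 to 2.8 for Tnfsf4 and -0.26 to 2.02 for Tnfsf9. These values rest on 3 libraries per group, with replicate 3 apart. The parts of the spread between libraries and of the depth in them were not tested.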
